A study of Arabidopsis thaliana with 59 samples.

Results

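The loci described here are those whose leaf transcript level was high in at least 1 Arabidopsis thaliana accession and low in at least 1 other when the plants were well watered. The 3 wet arrays of each accession were averaged, and the loci were chosen by these means: a locus was taken when its lowest accession mean was under 5 and its highest at least 8 on the log2 scale. Of the 20728 loci measured, 33 met both thresholds, 4 of these were left out by name, and 29 remained (0.140% of all loci). An accession is called on for a locus where its mean is at least 8, off where it is under 5, and middle between these values. The words on and off stand for these ranges alone.

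The arrays held rosette leaf RNA of 10 spring annual accessions (Bur-0, CIBC-17, Col, HR-5, KNOX-18, Ler, NFA-10, SQ-8, Ts-1 and Ws-2), each grown wet and dry. Wet pots stayed near 90% of the water they could hold, and the water in dry pots was lowered day by day to about 50% on day 5. All plants shared a porous ceramic medium with nutrient solution, 1 plant per pot, a 10 h photoperiod, and 23 C by day and 18 C by night. The 20 groups hold 3 arrays each, called biological replicates in the labels, except KNOX-18 dry with numbers 1 and 3 only, so 59 arrays were used, 30 wet and 29 dry. The labels do not say whether the RNA on an array came from 1 plant or several, nor the age of the plants. Each accession stands for 1 inbred line, so a difference between accessions is one between lines, and nothing about a single gene's alleles was measured.

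Natural accessions of Arabidopsis are inbred lines from different places that differ in sequence throughout the genome. A locus can be silent in a line because the gene is missing, because its control sequence is changed or methylated, or because a regulator that acts on it differs. Genes of defence against pathogens and insects, such as those for receptor kinases, thionins and the enzymes of glucosinolate breakdown and synthesis, are known for such presence and absence. An array reads a locus through short probes of fixed sequence, so a changed sequence under the probes lowers the value as well. In these data little transcript and poor probe match cannot be told apart, and fewer cells with a transcript cannot be told apart from less transcript per cell.

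The values of all arrays ran from 3.07 to 14.06, with array medians between 5.496 and 5.621. Values under 5 made up 42.0% of all values and values of at least 8 made up 18.1%, so off levels lie in the crowded lower part of the scale. The leaf markers measured (4 of 6 listed, genes of photosynthesis) had group means from 11.96 to 13.82. The 6 root markers lay between 3.95 and 5.14, the 4 flower markers between 3.43 and 4.23, and the 1 seed marker measured between 3.76 and 4.06. Guard cell markers (3) ran from 4.06 to 5.98, vascular markers (2) from 5.98 to 10.67 and epidermal markers (2) from 6.62 to 8.54. None of these markers was among the 29 loci, and the part of other cell types in the results was not tested.

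Single arrays need mention before the results. The third wet array of Col carries the stock number of Ws-2 in the labels. Over the 29 loci it correlated at r = 0.887 with the other arrays of Col, and its next nearest accession was SQ-8 at r = 0.236. All 59 of 59 arrays were nearest to their own accession on these loci, with correlations from 0.463 to 0.972 (median 0.894). As accession differences in wet leaves chose the loci, these correlations only describe how the labels sit with the values. The lowest of them belonged to the third wet array of Ler, which stood apart from its replicates at several loci. For SWEET13 the wet arrays of Ler read 9.98, 9.99 and 4.57, and for AT1G49500 they read 4.35, 4.90 and 11.29. Without that array the rule gave 32 loci, 28 of them shared, the locus lost being AT2G25510, which has the widest range of all. AT2G25510 was also lost without the first wet array of Ler. Without the third wet array of Col the rule gave 27 loci, 26 of them shared, and AT2G20670, SWEET13 and CYP705A19 were lost. Neither array enters the tests on dry leaves.

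Of the 29 loci, 12 have a gene symbol in the reference table (41.4%, against 43.1% of all loci) and 17 have a locus name only. All but AT2G15555, a non-coding RNA locus, are protein coding. They lie on all chromosomes, 6 each on chromosomes 1, 2, 3 and 5 and 5 on chromosome 4. The ranges of their wet accession means went from 3.26 for CYP705A19 to 8.64 for AT2G25510, and the median range over all loci was 0.493. The loci nearest the thresholds on the inner side were CYP705A19, AT4G16260 and SWEET13, with lowest means of 4.97, 4.97 and 4.95, and AT3G47560, AT4G28085 and NAC061, with highest means of 8.12, 8.19 and 8.19. Just outside lay AT1G06640, AT5G25450 and AT5G52740, with lowest means of 5.01 each, and AT4G20480, AT4G11000 and CYP81D8, with highest means of 7.998, 7.99 and 7.95.

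**Figure D1:**
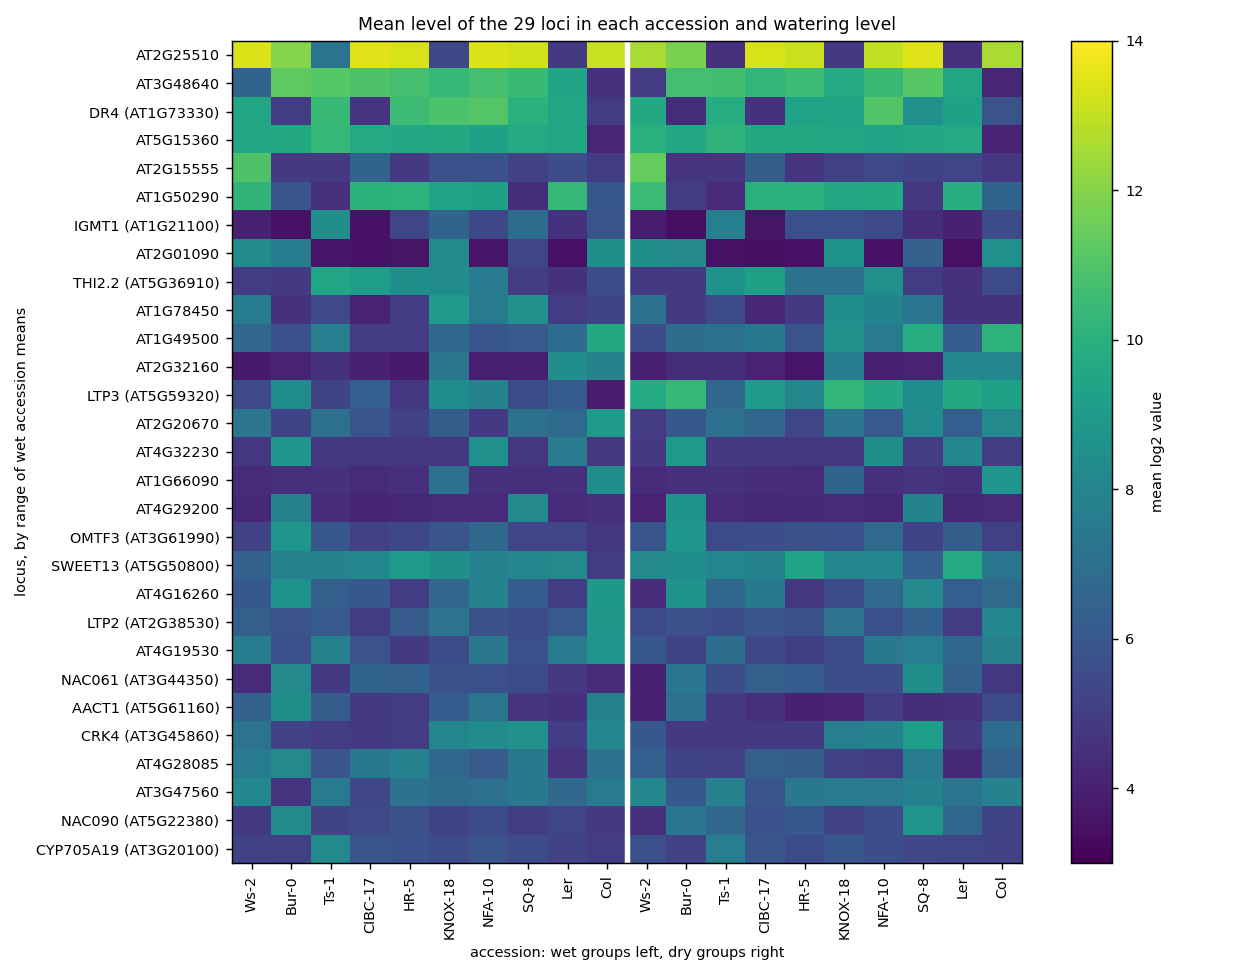
Mean log2 value of the 29 loci (rows, ordered by their range in wet leaves) in the 10 accessions (columns), with wet leaves on the left and dry leaves on the right. The colour scale gives the log2 value. AT5G15360 is low in Col alone and AT2G15555 is high in Ws-2 alone in both panels.

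The wet states were spread over all accessions. Bur-0 was on at 11 of the 29 loci, KNOX-18 at 10, Col at 9, SQ-8 at 8, Ws-2, HR-5 and NFA-10 at 7 each, and Ts-1, CIBC-17 and Ler at 6 each. HR-5 was off at 13 loci, CIBC-17 and Col at 12 each and Ler at 11, while KNOX-18 was off at 2 and middle at 17. Bur-0 held the highest mean at 8 loci and Col at 7, and Col also held the lowest mean at 7 loci. At 16 loci a single accession was on, at 8 loci 2 to 5 accessions were on, and at 5 loci 6 or more were on. Only DR4 and AT5G15360 had no middle accession, and 7 loci had 8 middle accessions. For most of the loci the accessions thus form a series of levels, and on and off name its ends.

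Dry leaves show the same loci on arrays that the rule did not use, although the labels do not say what same-numbered wet and dry arrays of an accession share. Of the 29 loci, 23 differed among the accessions in dry leaves (limma moderated F test over 29 arrays, adjusted p under 0.05), where 24.3% of all 20728 loci did. The mean over the accessions that were on in wet leaves exceeded that over the off accessions in dry leaves at 29 of 29 loci. At 22 loci the lowest dry array of the on accessions lay above the highest dry array of the off accessions, and at 17 of these the gap was at least 1 on the log2 scale. At the other 7 loci the arrays overlapped. No such count was made over all loci, so nothing is read from it. The number of arrays compared also differed, and at some loci, such as OMTF3, it was 1 on accession against 1 off accession. The share of variance in dry leaves that lay between accessions had a median of 90.5% over the 29 loci (37.0% to 99.6%) and of 46.0% over all loci. It reached 90% at 15 of the 29 loci and at 0.868% of all loci.

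The states themselves were mostly kept. Of the 77 pairs of locus and accession that were on in wet leaves, 60 were on in dry leaves, 17 were middle and 0 were off. Of the 87 that were off, 69 stayed off, 15 were middle and 3 were on, namely LTP3 in HR-5 and Col and NAC090 in SQ-8. In all, 129 of 164 on and off states were kept (78.7%). No such share was taken over all loci, so it only describes these loci. The accession with the highest mean was the same in wet and dry leaves at 17 loci, and that with the lowest mean at 14.

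**Figure D2:**
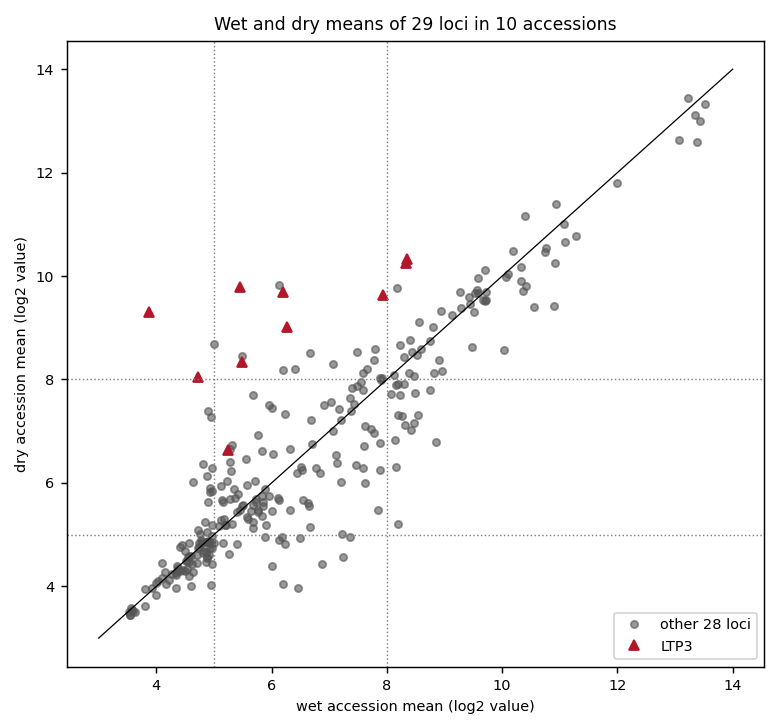
Dry against wet accession mean (log2 values) for each of the 29 loci in each of the 10 accessions, with LTP3 in red triangles and the other 28 loci in grey. The line marks equal values and the dotted lines mark 5 and 8. Most points lie along the line, and the 10 points of LTP3 all lie above it.

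At 5 loci 6 or more accessions were on in wet leaves and 1 to 3 were off. AT2G25510, a protein-coding locus, had the widest range. Its wet arrays read 4.59, 5.42 and 4.61 in Ler, and 4.57, 5.78 and 5.84 in KNOX-18. They ran from 11.38 to 13.78 in the 7 accessions that were on. Ts-1 lay between, and its wet arrays of 9.38, 6.55 and 5.78 were far apart. In dry leaves all 3 of these accessions were off, with arrays of 4.83, 4.42 and 4.44 in Ler, 5.08 and 4.55 in KNOX-18, and 4.20, 4.53 and 5.0 in Ts-1. The dry arrays of the on accessions ran from 11.48 to 13.69 with a median of 12.95, so the groups did not overlap. Their mean exceeded that of Ler by 8.28 ± 0.26 (SE) on the log2 scale (limma adjusted p = 7.6e-16). Here and below, the adjusted p beside a dry difference is that of the F test among all 10 accessions, not of the difference itself.

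AT5G15360 split the accessions most simply, with Col off and the other 9 on. The Col arrays read 4.53, 4.01 and 3.94 in wet leaves and 3.70, 4.14 and 4.27 in dry leaves. In the other accessions the wet arrays ran from 8.91 to 10.54 and the dry arrays from 9.23 to 10.25 (median 9.68). No array of Col came near the rest, and the dry difference was 5.65 ± 0.11 (limma adjusted p = 1.74e-16). AT3G48640 was off in Col as well, with wet arrays of 4.45, 4.71 and 4.56 and dry arrays of 4.30, 4.09 and 4.20. In Ws-2 it was middle when wet, at 7.35, 6.05 and 6.06, and off when dry, at 5.40, 4.62 and 4.78. The 8 on accessions had dry arrays from 8.67 to 11.31 with a median of 10.504, all above Col and Ws-2. The difference from Col was 6.18 ± 0.27 (limma adjusted p = 3.88e-12).

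DR4 (AT1G73330) encodes a protein like plant protease inhibitors and was named for its repression by drought. It was off in Bur-0, CIBC-17 and Col and on in the other 7. Its wet arrays read 5.18, 4.86 and 4.86 in Bur-0, 4.79, 4.58 and 4.76 in CIBC-17, and 5.15, 4.62 and 5.02 in Col. In dry leaves Bur-0 read 4.12, 4.54 and 4.62 and CIBC-17 read 4.39, 4.58 and 4.88. Col was higher than both, at 5.47, 5.48 and 6.51, which is a middle level. The dry arrays of the 7 on accessions ran from 8.28 to 11.52 (median 9.48), and the groups stayed apart by 1.77. The dry difference was 4.65 ± 0.15 (limma adjusted p = 9.28e-13).

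AT1G50290 was on in 6 accessions, off in Ts-1 and SQ-8, and middle in Bur-0 and Col. The wet arrays read 4.17, 4.58 and 4.76 in Ts-1 and 3.89, 4.92 and 4.55 in SQ-8, against 8.5 to 10.54 in the on accessions. In dry leaves they read 4.03, 4.83 and 4.05 in Ts-1 and 5.36, 4.48 and 4.54 in SQ-8, against 9.28 to 10.75 (median 10.04). Bur-0 had an off mean of 4.96 in dry leaves while Col stayed middle at 6.55. The on accessions exceeded the off ones by 5.40 ± 0.18 (limma adjusted p = 2.32e-13). SWEET13 (AT5G50800), which encodes a sucrose transporter of the SWEET family, was on in 5 accessions, middle in 4 and off in Col, at 5.14, 5.25 and 4.44. In dry leaves Col read 7.73, 7.58 and 6.53, a middle level. SQ-8, which was on when wet, then lay lower than Col in the mean, at 5.78, 6.99 and 6.16, and the on and off accessions overlapped. The dry difference was 1.0 ± 0.37, and the F test among accessions passed (limma adjusted p = 0.000784).

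**Figure D3:**
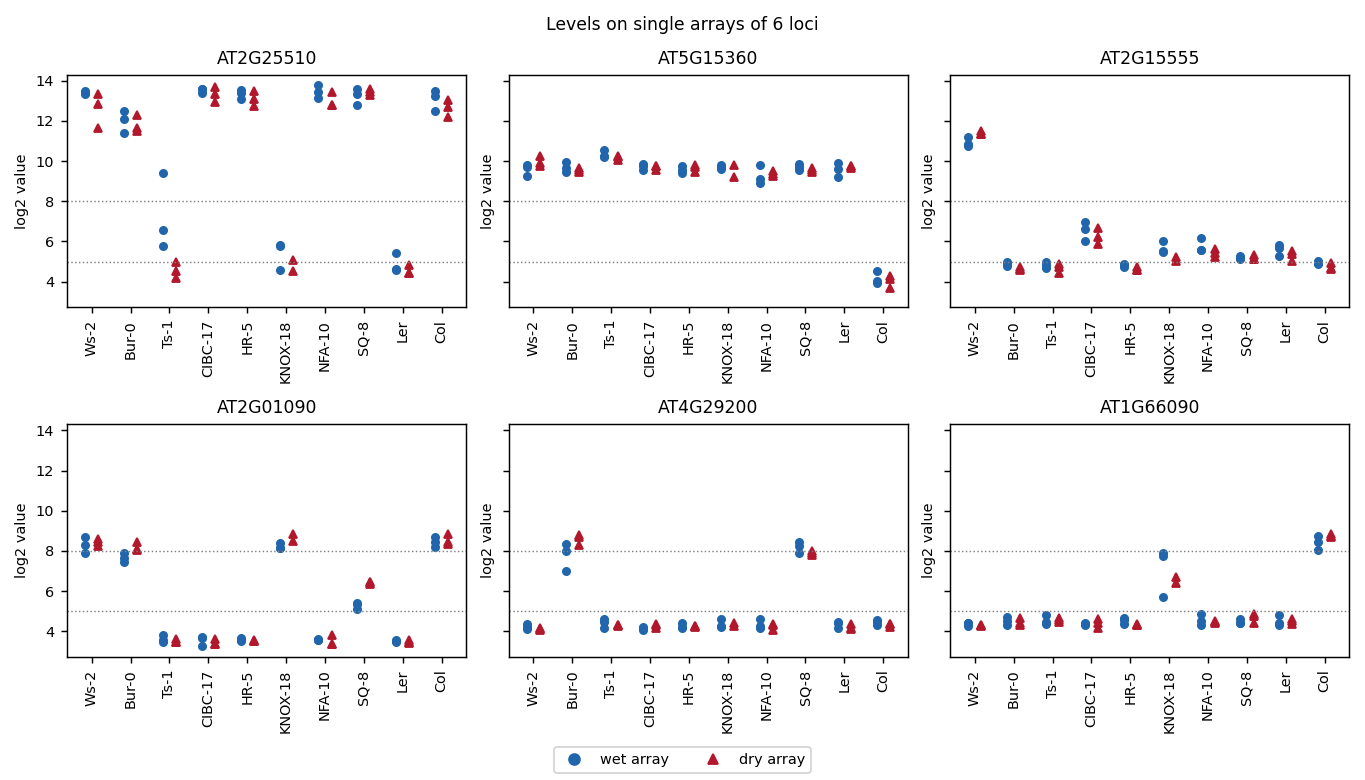
Log2 value on each wet array (blue circles) and dry array (red triangles) of 6 loci by accession, with dotted lines at 5 and 8. In each panel the accessions that are high in wet leaves are high in dry leaves, and the replicates of most groups lie close together. The wet arrays of Ts-1 for AT2G25510 and of KNOX-18 for AT1G66090 spread widely.

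The 6 loci that come next were on in 1 to 3 accessions in wet leaves, and their on and off accessions did not overlap in dry leaves. Replicates lay close together in most groups but not in KNOX-18 at AT1G66090 and AT2G32160. AT2G15555, the non-coding RNA locus, read 11.20, 10.87 and 10.74 in wet Ws-2 and 11.37, 11.47 and 11.35 in dry Ws-2. The other 9 accessions had wet means from 4.81 in HR-5 to 6.52 in CIBC-17. The off accessions had dry arrays from 4.44 to 4.94 (median 4.67), and Ws-2 exceeded them by 6.71 ± 0.13 (limma adjusted p = 1.25e-16). AT1G66090 read 8.46, 8.74 and 8.02 in wet Col and 8.69, 8.84 and 8.75 in dry Col. KNOX-18 came next with wet arrays of 7.91, 5.71 and 7.73 and dry arrays of 6.68 and 6.39. The other 8 accessions were off in both, and Col exceeded them in dry leaves by 4.30 ± 0.09 (limma adjusted p = 1.25e-16).

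AT4G29200 was high in SQ-8 and Bur-0 only. SQ-8 read 8.43, 7.89 and 8.27 when wet and 7.82, 7.91 and 7.98 when dry, and Bur-0 read 7.01, 8.34 and 8.01 when wet and 8.28, 8.70 and 8.81 when dry. So SQ-8 went from on to middle and Bur-0 from middle to on around the threshold of 8, while the arrays of the 8 off accessions stayed between 4.07 and 4.63 in wet leaves and between 4.08 and 4.43 in dry leaves. The difference of SQ-8 from the off accessions in dry leaves was 3.64 ± 0.08 (limma adjusted p = 1.31e-18).

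AT4G32230 was high in Bur-0, NFA-10 and Ler. The wet arrays read 8.90, 8.95 and 8.54 in Bur-0, 8.54, 8.63 and 8.41 in NFA-10, and 7.36, 7.90 and 7.48 in Ler. The dry arrays read 9.09, 8.78 and 9.15 in Bur-0, 8.68, 8.32 and 8.40 in NFA-10, and 7.94, 8.40 and 8.03 in Ler. Every array of the 7 off accessions lay between 4.5 and 5.12, and the dry difference between on and off accessions was 3.89 ± 0.08 (limma adjusted p = 3.75e-17).

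AT2G01090 had the largest share of dry variance between accessions of all 20728 loci, at 99.6%. It was on in wet Ws-2 (8.28, 7.90 and 8.69), KNOX-18 (8.40, 8.15 and 8.16) and Col (8.67, 8.18 and 8.44), with Bur-0 just under the threshold (7.47, 7.88 and 7.64). Ts-1, CIBC-17, HR-5, NFA-10 and Ler were off, with wet arrays from 3.26 to 3.83 and dry arrays from 3.35 to 3.80. SQ-8 stood alone between the 2 sets, at 5.37, 5.09 and 5.39 when wet and 6.45, 6.43 and 6.33 when dry. The dry arrays of the on accessions ran from 8.25 to 8.86 (median 8.46), and the difference from the off accessions was 5.04 ± 0.07 (limma adjusted p = 4.05e-19).

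AT2G32160 was high in Ler (8.0, 8.43 and 8.72 when wet), Col (7.78, 8.45 and 7.51) and KNOX-18 (6.57, 8.75 and 6.75). In dry leaves these read 8.54, 8.47 and 7.37 in Ler, 8.71, 7.88 and 7.49 in Col, and 8.68 and 6.62 in KNOX-18. The 7 off accessions had dry arrays between 3.50 and 4.94, below every array of the high accessions, and Ler exceeded them by 4.04 ± 0.29 (limma adjusted p = 4.84e-09).

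Among the loci with a known role in defence, THI2.2 (AT5G36910) encodes a thionin, a small cysteine-rich peptide toxic to microbes. It was on in wet Ts-1 (9.46, 9.97 and 8.98), CIBC-17 (8.88, 9.65 and 8.87), HR-5 (9.56, 8.15 and 7.71) and KNOX-18 (8.40, 8.82 and 7.74). Ws-2, Bur-0, SQ-8 and Ler were off, with wet arrays from 4.46 to 5.48. In dry leaves the arrays of HR-5 spread from 6.11 to 9.0, and NFA-10 became on at 8.53, 8.28 and 8.81. The lowest dry array of the on accessions still lay 0.79 above the highest of the off accessions, and the difference was 3.22 ± 0.32 (limma adjusted p = 1.01e-05).

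CRK4 (AT3G45860) encodes a receptor-like kinase with cysteine-rich repeats outside the cell. It was on in wet KNOX-18, NFA-10, SQ-8 and Col, with arrays from 7.22 to 8.93, and middle in Ws-2 at 7.10, 7.10 and 7.40. Ts-1, CIBC-17 and HR-5 were off at 4.78 to 5.06, and Bur-0 and Ler lay just above 5 at means of 5.17 and 5.002. In dry leaves SQ-8 read 9.31, 8.72 and 9.33 and was the only accession still on, while Col read 6.80, 7.58 and 6.13. The dry difference was 3.04 ± 0.17 (limma adjusted p = 1.69e-09). AT1G78450 shared part of this order, being on in wet KNOX-18 (8.79, 9.55 and 8.38) and SQ-8 (8.17, 8.94 and 8.53), with Ws-2 and NFA-10 middle at 7.61 and 7.55. It was off in Bur-0, CIBC-17, HR-5 and Ler, and its dry difference was 3.23 ± 0.17 (limma adjusted p = 1.54e-10).

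IGMT1 (AT1G21100) encodes a methyltransferase that modifies indole glucosinolates, the sulphur-containing defence compounds of the cabbage family. In wet leaves it was on in Ts-1 alone, at 7.64, 8.74 and 9.11. In dry leaves Ts-1 read 7.74, 8.01 and 7.48 and was middle, so no accession was on, and SQ-8 went from a middle mean of 6.88 to an off mean of 4.44. Ws-2, Bur-0, CIBC-17 and Ler were off in both, with dry arrays from 3.38 to 4.18 (median 3.67). The 5 remaining accessions had wet means from 5.28 to 6.88 and wide spreads, as in HR-5 at 4.01, 5.52 and 6.31. Number 1 was the lowest wet array in 10 of 10 accessions. The dry difference of Ts-1 from the off accessions was 4.03 ± 0.32 (limma adjusted p = 1.26e-06). CYP705A19 (AT3G20100), a cytochrome P450 gene, was also on in Ts-1 alone in wet leaves, at 8.57, 7.96 and 8.17. In dry leaves Ts-1 read 7.95, 7.92 and 7.26, a middle level. The other accessions had wet means of 4.97 to 5.88, so its low side lay close to the threshold, and the dry difference of Ts-1 from Col was 2.53 ± 0.29 (limma adjusted p = 5.26e-05).

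Bur-0 was the only accession on in wet leaves at OMTF3 (AT3G61990), whose symbol places it among O-methyltransferase genes, at NAC061 (AT3G44350) and NAC090 (AT5G22380), which encode transcription factors of the NAC family, at AACT1 (AT5G61160), an acyltransferase gene, and at AT4G28085. OMTF3 read 9.40, 8.76 and 8.06 in wet Bur-0 and 9.86, 8.05 and 8.35 in dry Bur-0. Col, the off accession, read 5.59, 4.38 and 4.22 when wet and 4.73, 4.52 and 6.01 when dry. These did not overlap, with a dry difference of 3.67 ± 0.59 (limma adjusted p = 0.0027). AT4G28085 kept little of its split in dry leaves, where Bur-0 read 5.42, 4.69 and 5.48 and the off accession Ler read 4.17, 4.21 and 4.46, a difference of 0.92 ± 0.37. The F test among accessions passed for this locus (limma adjusted p = 4.3e-05), and SQ-8 had the highest dry mean at 7.52.

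At NAC061 and NAC090 Bur-0 was highest in wet leaves and SQ-8 in dry leaves. NAC061 read 8.76, 8.05 and 7.76 in wet Bur-0 and 7.56, 8.19 and 6.18 in dry Bur-0. In SQ-8 it read 5.84, 5.28 and 5.33 when wet and 8.34, 8.35 and 8.64 when dry. NAC090 read 9.15, 7.51 and 8.11 in wet Bur-0 and 7.36, 8.37 and 6.17 in dry Bur-0, and in SQ-8 it read 5.88, 4.88 and 4.24 when wet and 8.52, 8.63 and 8.90 when dry. In SQ-8 no dry array of either gene overlapped a wet one. The F test among dry accessions passed for both (limma adjusted p = 0.00101 for NAC061 and 0.00458 for NAC090), with on minus off differences of 2.13 ± 0.50 and 1.17 ± 0.58 and overlapping arrays. The test of whether drying differed among accessions did not pass for either (limma adjusted p = 0.242 for NAC061 and 0.176 for NAC090).

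AT3G47560 and AT4G19530 had graded levels. AT3G47560 was on in wet Ws-2 (8.19, 8.09 and 8.08), off in Bur-0 (4.36, 4.57 and 4.98) and middle in all others, CIBC-17 being the next lowest at a mean of 5.35. Its dry difference of Ws-2 from Bur-0 was 2.07 ± 0.30 (limma adjusted p = 6.42e-05). AT4G19530 was on in wet Col (8.15, 8.72 and 9.38) and off in HR-5 (5.05, 4.44 and 5.16). In dry leaves Col read 7.78, 8.13 and 7.47 and HR-5 read 4.87, 5.15 and 5.12, a difference of 2.75 ± 0.28 (limma adjusted p = 1.89e-07).

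The F test among accessions in dry leaves was not passed by 6 loci, namely AT1G49500, AT2G20670, LTP3, LTP2, AT4G16260 and AACT1 (limma adjusted p from 0.0684 for LTP2 to 0.421 for AACT1). LTP2 passed without the first dry array of CIBC-17, HR-5 or KNOX-18 or the third of CIBC-17 (adjusted p from 0.0204 to 0.0488), and AT1G49500 passed without the third dry array of NFA-10 (adjusted p = 0.0408). LTP2 also passed with dim loci left out (adjusted p = 0.0425) and with all arrays in 1 fit (adjusted p = 0.0485). LTP2 (AT2G38530) and LTP3 (AT5G59320) encode lipid transfer proteins, small secreted proteins that bind lipids. In wet leaves Col alone was on at LTP2 (off in CIBC-17), AT1G49500 (off in CIBC-17 and HR-5) and AT2G20670 (off in NFA-10). At AT2G20670 the wet Col arrays read 5.80, 9.81 and 11.28. AT4G16260 was on in Bur-0 and Col and off in HR-5 and Ler. LTP3 was on in Bur-0 and KNOX-18 and off in HR-5 and Col. AACT1 was on in Bur-0 and off in CIBC-17, HR-5, SQ-8 and Ler. The replicates of these 6 loci were far apart. AT1G49500 read 4.27, 9.24 and 9.67 in wet Ts-1 and 4.95, 7.08 and 10.49 in dry NFA-10. AT4G16260 read 4.55, 4.78 and 11.07 in dry Col, and AACT1 read 3.78, 4.0 and 8.67 on the same arrays. At LTP2 and AT1G49500 the dry arrays of Col still lay above all arrays of the off accessions, by 0.26 and 0.95. The on and off states of the other 4 overlapped in dry leaves.

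For 3 of these loci the spread followed the replicate number most clearly, although the labels do not say what a number marks. The median of AT1G49500 over the wet arrays was 4.43 for number 1, 6.44 for number 2 and 7.83 for number 3, and over the dry arrays it was 5.44, 7.08 and 8.82. AT2G20670 had medians of 4.76, 6.51 and 7.76 in wet leaves and 5.09, 6.75 and 8.54 in dry leaves. LTP2 rose with the number over a smaller span, at 5.31, 5.86 and 6.68 in wet leaves and 5.48, 5.82 and 6.30 in dry leaves. Its number 1 was the lowest wet array in 7 of 10 accessions. LTP3 ran the other way, at 8.53, 4.82 and 4.80 in wet leaves and 10.60, 8.91 and 8.06 in dry leaves. Its wet on state in Bur-0 was made of arrays reading 11.90, 8.33 and 4.84. In wet leaves number 1 was the lowest array in 9 of 10 accessions at AT1G49500 and in 10 of 10 at AT2G20670, and the highest in 8 of 10 at LTP3. IGMT1 shared the order in wet leaves, as given above, with wet medians of 4.31, 5.73 and 5.87, but its dry medians were 4.52, 4.17 and 5.24. At DR4 number 2 was the lowest wet array in 9 of 10 accessions. At CYP705A19 number 1 was the highest dry array in 9 of the 9 accessions with 3 dry arrays. For AT1G49500, AT2G20670 and LTP3 an on or off call therefore rests on a mean over arrays that differ widely by replicate number. Every wet group holds numbers 1, 2 and 3, so the number is not tied to accession there, while KNOX-18 dry lacks number 2. The part of the replicate number in the other calls was not tested beyond the fits with it as a block.

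**Figure D4:**
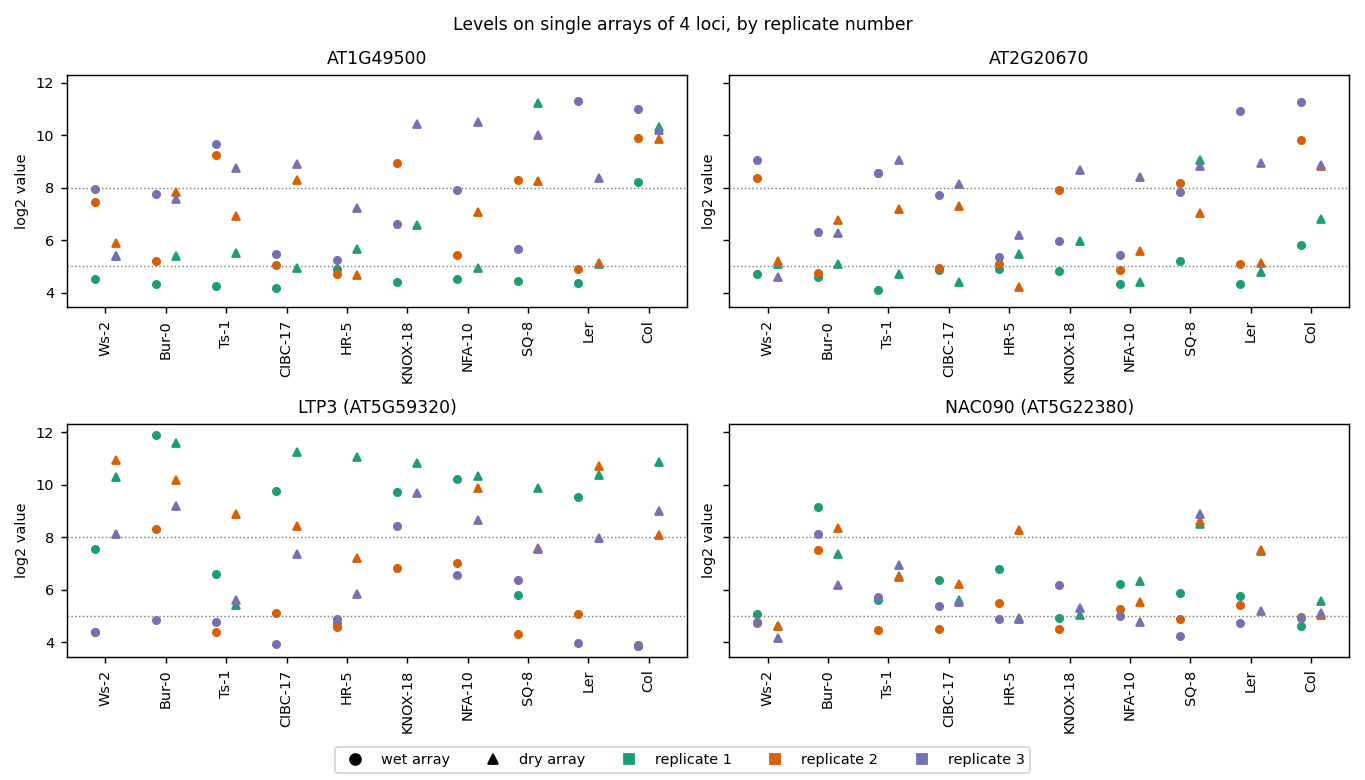
Log2 value on each array of AT1G49500, AT2G20670, LTP3 and NAC090 by accession, with circles for wet and triangles for dry arrays and colours for the replicate number. Number 1 tends to be lowest for AT1G49500 and AT2G20670 and highest for LTP3. For NAC090 the 3 dry arrays of SQ-8 lie above its 3 wet arrays.

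Drying was compared as the mean over the 10 accessions of dry minus wet, a contrast that shares the wet arrays with the rule. Of the 29 loci, 5 were higher in dry leaves (15.5% of all loci were) and 7 lower (13.8% of all loci were). The median of dry minus wet was -0.01 over the 29 loci and 0.00 over all loci on the log2 scale, and the median size without sign was 0.25 and 0.08. LTP3 rose by 2.92 ± 0.48 (limma adjusted p = 8.4e-06) and was higher in 10 of 10 accessions. It was off in wet Col (3.89, 3.86 and 3.85) and on in dry Col (10.86, 8.08 and 9.0), and in HR-5 it went from 4.72, 4.57 and 4.87 to 11.06, 7.22 and 5.85. NAC090 rose by 0.62 ± 0.21 (limma adjusted p = 0.0204) in 7 of 10 accessions, and AT3G47560 rose by 0.49 ± 0.09 (limma adjusted p = 3.24e-05) in 9 of 10. AT2G01090 rose by 0.20 ± 0.05 (limma adjusted p = 0.0016) in 5 of 10. AT4G32230 rose by 0.13 ± 0.05 (limma adjusted p = 0.0264) in 9 of 10, a call lost with array medians centred (adjusted p = 0.0577).

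The falls were led by AACT1, which fell by 1.35 ± 0.30 (limma adjusted p = 0.000548), and AT4G28085, which fell by 1.15 ± 0.14 (limma adjusted p = 1.94e-08), each in 9 of 10 accessions. In Bur-0, where AT4G28085 was on, the arrays went from 7.98, 7.97 and 8.63 to 5.42, 4.69 and 5.48. AT2G25510 fell by 0.56 ± 0.15 (limma adjusted p = 0.0048) in 9 of 10 accessions, Ts-1 moving most, and CRK4 fell by 0.33 ± 0.11 (limma adjusted p = 0.0154) in 9 of 10. AT3G48640 fell by 0.39 ± 0.12 (limma adjusted p = 0.012) in 8 of 10. IGMT1 fell by 0.48 ± 0.17 (limma adjusted p = 0.0273) in 7 of 10, a call lost without the first dry array of KNOX-18 (adjusted p = 0.0714). AT2G15555 fell by 0.17 ± 0.06 (limma adjusted p = 0.0308) in 8 of 10, and this call was lost without any 1 of 6 arrays (adjusted p up to 0.0588). DR4 had a difference of -0.46 ± 0.19 and did not pass (limma adjusted p = 0.063). Without the third wet array of Ler its difference was -0.58 and passed (adjusted p = 0.0018), and AT1G49500 then passed as higher (adjusted p = 0.0406). DR4 also passed without the second wet array of Ts-1, HR-5 or KNOX-18 or the third dry array of Col. It passed with dim loci left out as well (limma adjusted p from 0.0266 to 0.0493 over these settings).

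**Figure D5:**
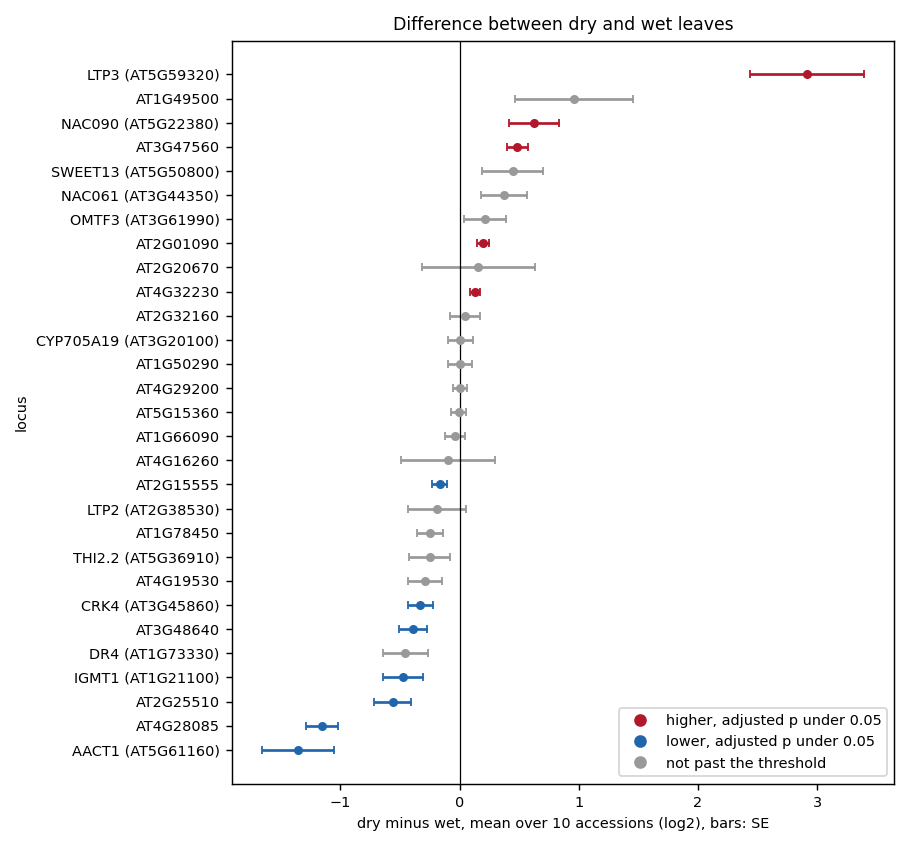
Mean over the 10 accessions of dry minus wet (log2 difference) for each of the 29 loci, with bars for the standard error of the limma fit and colours for the call at an adjusted p of 0.05. LTP3 has the largest rise at 2.92 and AACT1 the largest fall at -1.35.

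Whether drying differed among the accessions was asked with a limma F test that uses the wet values behind the rule. It passed at 1 of the 29 loci, AT2G01090 (adjusted p = 0.0106), and at 0.27% of all loci. Nothing is read from that count.

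The loci did not lie side by side. The closest 2 of the 29, AT1G49500 and AT1G50290, had 94 genes between them in the reference gene order, so 0 pairs were neighbours at a limit of 5 or of 10 genes between. Around the 29 loci 220 measured genes lay with at most 5 genes between, and 0 of them followed the pattern of their neighbour, taken as r of at least 0.9 over the 10 accession means in wet and again in dry leaves. Over all other loci a mean of 0.0062% per member met that limit. The lower of the wet and dry r had a median of -0.15 over the 220 neighbours. Taking the lower of 2 values pulls this median down, so no opposed pattern is read from it. For example, AT2G25460 beside AT2G25510, with a lower r of -0.15, ranked 10201 of 20727 loci. Genes beside the loci that were not measured could not be compared. For example, none of the 5 genes between IGMT1 and AT1G21140 was measured.

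Closest to it came LTP4 (AT5G59310), which directly adjoins LTP3 and also encodes a lipid transfer protein. Its r with LTP3 was 0.980 in wet and 0.846 in dry leaves, the best of 20727 loci. LTP3 and LTP4 are close copies. Probe sequences were not at hand, so signal shared between their probes could not be checked, and they stay uncertain as separate genes. LTP4 was highest in Bur-0 and lowest in Col, as LTP3 was, over a narrower range of wet means (4.54 to 7.54, against 3.87 to 8.36 for LTP3). NAC090 and QQT1, adjoining genes, had r = 0.771 in wet and 0.853 in dry leaves, but QQT1 ranged over only 0.34 in wet leaves. OMTF3 and AT3G62050 had r = 0.697 and 0.742, and AT3G62050 ranged over 0.56 in wet leaves. AT1G49500 and the adjoining AT1G49490 had r = 0.863 and 0.694, but AT1G49490 lay between means of 3.82 and 4.09. AT4G16260 and the adjoining PHYD, a phytochrome gene, had r = 0.864 and 0.598, and PHYD ranged over 1.65. CYP705A19 sits in a row of genes of its own P450 subfamily, and these did not share its high level in Ts-1. Its r with CYP705A18 was -0.503 in wet and -0.827 in dry leaves, with CYP705A20 it was 0.694 and -0.135, and with CYP705A21 it was -0.710 and -0.592. With CYP705A15, CYP705A22 and CYP705A23 it ran from -0.015 to 0.259 over wet and dry leaves. CYP705A18 and CYP705A20 lay near the bottom of the scale, with wet means of 3.35 to 3.65 and 3.43 to 3.55, so little can be read from their r.

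Some loci apart from each other in the genome had like accession means. Of the 406 pairs among the 29 loci, 5 had r of at least 0.8 over the 10 dry accession means, and the median over all pairs was 0.00. AT1G49500 and AT2G20670 had r = 0.940 in dry and 0.854 in wet leaves, with a dry Spearman rho of 0.879. NAC061 and NAC090 had r = 0.926 and 0.871 (dry rho 0.855), and AT1G49500 and LTP2 had 0.839 and 0.841 (dry rho 0.794). The ranks were less alike for AT1G66090 and LTP2, with r = 0.917 and 0.920 but a dry rho of 0.588, and for AT4G32230 and OMTF3, with r = 0.829 and 0.736 but a dry rho of 0.442. Col was highest at both loci of the first of these pairs and Bur-0 at both loci of the other. These correlations rest on 10 accession means from the same arrays, and the first pair shares the replicate number pattern given above. The medians of AT1G49500 and LTP2 also both rose with the replicate number.

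Across all loci, the gene most like each member was taken as that with the highest lower value of wet and dry r over the 10 accession means. AT5G15360 was most like ESP, which encodes the epithiospecifier protein that steers glucosinolate breakdown (r = 0.984 wet and 0.976 dry). ESP is a locus that the rule left out by name. AT3G48640 was most like LURP1, a gene known from the response to a downy mildew pathogen (0.943 and 0.914), and AT4G16260 was most like PR4, a pathogenesis-related gene (0.948 and 0.939). NAC061 was most like MYB15, a transcription factor gene (0.889 and 0.904), and CRK4 was most like MRU1 (0.936 and 0.940). AT1G66090 was most like SEP4, a MADS-box gene (0.940 and 0.990), and SWEET13 was most like the homeobox gene HB34 (0.919 and 0.940). AT1G49500 was most like AT3G07350 (0.973 and 0.987), and AT2G20670 was most like AT3G15450 (0.977 and 0.963). With 10 points and 20727 candidates for each, these values are a description. The pairs named were not picked by the size of r, and AT2G15555 with AT1G23120, for example, had 0.965 and 0.956. AT4G16260, AT1G49500 and AT2G20670 did not pass the F test among dry accessions (limma adjusted p = 0.309, 0.0927 and 0.339). Their dry means rest on arrays that were far apart. AT5G15360 was off in Col alone and AT1G66090 was on in Col alone, so that accession weighs heavily in their r.

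Seen by accession, the profiles over the 29 loci in dry leaves were most alike between HR-5 and NFA-10 (r = 0.850), CIBC-17 and HR-5 (0.832) and CIBC-17 and NFA-10 (0.728). CIBC-17 and HR-5 were on together at 6 loci and off together at 9 in wet leaves, with opposite states at 1. They were least alike between Ts-1 and Col (-0.264) and between Ler and Col (-0.097). Ler and Col, both common laboratory lines, had opposite wet states at 8 loci and were on together at 0. Of genes known for natural variation among accessions, 9 of 18 listed were measured and 0 were among the 29. This list holds none of the 7 loci that the rule left out by name, 4 of which met both thresholds, so the 0 does not cover those. ESM1, a modifier of glucosinolate breakdown, came nearest by range, at 5.56 in wet leaves, with group means from 6.28 to 12.29.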

How the data were processed

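The deposited table holds 1 log2 value per locus and array, made by the authors from biotin-labelled cRNA hybridizations. MAS5 and RMA are named per the submitters' processing notes, with no versions or roles, and array design and build not given in the sources used here. The table has no detection calls, and the number of arrays limits the precision. Values were used as deposited, and 0 columns were left unused. Names and gene order came from a TAIR10.1 reference table, which held 20546 of the 20728 loci. It has no sequences or descriptions, so the planned functional classes were void.

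The main test was a moderated F test among 10 accessions on the 29 dry arrays (limma 3.58.1 in R 4.3.3, 19 residual degrees of freedom). Drying and its interaction with accession came from a fit of 20 group means to 59 arrays. P-values were Benjamini-Hochberg adjusted over all loci at 0.05, and SE is that of the fit. The fits were tested on simulated data. The members, lists and tests were chosen with earlier results of these data known. The loci named were the 25 widest wet ranges, those on or off alone in an accession, those moving most with drying or changing state, and those beside the thresholds. The most alike genes were chosen after seeing the data. All 29 loci are described. Replicate numbers were to pair arrays if the labels said so or every same-numbered pair deviated together; neither held, though most pairs did, so the block stayed an alternative. Alternatives covered scaling, dim loci, the variance trend, the replicate block, thresholds, and leaving out each array.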

Additional observations from a re-analysis of the deposited data

Results flagged for a closer look

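AT2G01090 was picked out because drying differed among accessions at this locus (limma F test of the interaction, adjusted p = 0.0106). In SQ-8 its mean went from 5.28 ± 0.17 (SD, n = 3) to 6.40 ± 0.06 (SD, n = 3), and in Bur-0 from 7.66 to 8.19, while Ts-1, CIBC-17, HR-5, NFA-10 and Ler stayed between 3.45 and 3.62. It was higher in dry leaves in 5 of 10 accessions. The locus was chosen on its wet values, which enter this test, and those 5 accessions lay near the bottom of the scale in both conditions, so nothing is read from the call. Without the second wet array of SQ-8 no locus of the 29 passed.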

How the results depend on the processing

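There were 58 results for single loci (29 for accession differences in dry leaves, 29 for drying). Of these, 50 kept their call under every alternative tried and 8 changed it under at least 1. Of 2871 values, 8 lost and 19 gained a call, and 0 changed direction with a call in either fit. Uncalled drying differences did change sign at some loci, such as AT4G16260 (-0.31 to 0.06) and AT2G32160 (-0.05 to 0.15). The cause of these changes was not tested. The number of loci meeting the rule depended on its thresholds: 3 met it at 4.5 and 8.5. It was 42 with the median of the wet arrays (25 shared), 39 with dry arrays (19 shared), and 27 to 35 when 1 wet array was left out. The 23 loci called among dry accessions were 23 to 25 under other settings and 23 to 24 when 1 array was left out (4217 to 5237 over all loci). Drying called 4 to 6 higher and 6 to 8 lower, and with 1 array left out 5 to 6 and 6 to 8 (5782 to 6562 over all loci). The interaction called 2 loci with dim loci left out, and 0 to 3 with 1 array left out, 0 without the second wet array of SQ-8 and 3 without the second dry array of HR-5. With 1 KNOX-18 dry array left out, the lone array is assumed to vary like the other groups.

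With the replicate number as a block, 25 of the 29 loci differed among dry accessions (7334 of all loci), 6 were higher and 7 lower with drying (7083 of all loci), and 2 passed the interaction. The block added the calls for AT1G49500 (adjusted p = 0.0113) and LTP2 (0.0417) in dry leaves. Same-numbered wet and dry arrays of an accession deviated together with r over 0.1 in 24 of 29 pairs (-0.20 to 0.56), and 46 of 58 arrays correlated best with their own number, a hint from the data that same-numbered arrays share something. As 5 pairs were at or under 0.1 and the labels name nothing shared, the fits without the block were kept. States kept in dry leaves came to 79.1% with quantile normalization and 84.5% with 1 threshold at 6.5. Neighbouring pairs were 0 under each alternative. The closest 2 of the 29 loci had 94 genes between them, so no alternative tried could give another count.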
